A study of Homo sapiens with 12 samples.

Results

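The 8 genes described here encode the catalytic subunit of telomerase (TERT), the 6 shelterin proteins (TERF1, TERF2, TERF2IP, TINF2, ACD and POT1) and the telomere helicase RTEL1. The rule that picks them uses gene symbols and no measured value, although the set was proposed with earlier results of these data known, and they are 8 of the 59251 genes in the count table. RNA-Seq was performed on HL60 cells, a human myeloid leukemia cell line, grown without drug (non-treated cells) or kept for 48 h in all-trans retinoic acid (ATRA, 1 µM), in palbociclib (CDK4/6i, 1 µM), an inhibitor of the cyclin-dependent kinases CDK4 and CDK6, or in both drugs at those doses (CDK4/6i+ATRA). Each of the 4 groups had 3 biological replicates, 12 libraries in all, from this single cell line grown in medium with serum, and non-treated cells served as the control. The comparisons ask how each drug, and the pair, changed the genes that copy and cap chromosome ends, and whether the pair departed from the sum of the single drugs.

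Chromosome ends carry tandem TTAGGG repeats with a single-stranded 3′ overhang, and telomerase lengthens them by copying an RNA template (TERC) with its reverse transcriptase TERT. Shelterin covers these repeats: TRF1 (TERF1) and TRF2 (TERF2) bind the double-stranded part, RAP1 (TERF2IP) rides on TRF2, and TIN2 (TINF2) links both to TPP1 (ACD), which with POT1 holds the overhang and recruits telomerase. Leukemia lines such as HL60 keep telomerase active, and telomerase is known to decline when HL60 cells differentiate.

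Expression is given as CPM, which is the count of a gene per 1000000 counts of its library after TMM scaling, a scaling that assumes most genes keep their share of the total. On hg38, 3 of the 8 genes lie on chromosome 16, namely TERF2 (chr16:69355567-69386007, minus strand), TERF2IP (chr16:75647773-75657432, plus strand) and ACD (chr16:67657512-67660260, minus strand). TERT lies at chr5:1253167-1295068 (minus strand), RTEL1 at chr20:63657810-63696253 (plus strand), POT1 at chr7:124822386-124929825 (minus strand) and TINF2 at chr14:24239640-24242674 (minus strand). The counts were summed over the exons of each gene, which span 4039 bases in 16 blocks for TERT and 3263 bases in 3 blocks for TERF2IP. The 250 bases upstream of the transcript start are shown for TERT and for the shelterin genes that fell most (ACD) and rose most (TERF2IP) with CDK4/6i+ATRA, taken from RefSeq on GRCh38.p14 and written 5′ to 3′ on the strand of the gene (TERT, chr5:1295069-1295318; ACD, chr16:67660261-67660510; TERF2IP, chr16:75647523-75647772).
TERT: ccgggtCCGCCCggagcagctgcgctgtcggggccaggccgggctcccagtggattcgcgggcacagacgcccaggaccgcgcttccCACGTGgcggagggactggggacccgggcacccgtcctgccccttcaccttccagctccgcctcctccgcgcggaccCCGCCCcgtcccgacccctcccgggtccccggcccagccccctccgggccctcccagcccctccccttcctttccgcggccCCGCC
ACD: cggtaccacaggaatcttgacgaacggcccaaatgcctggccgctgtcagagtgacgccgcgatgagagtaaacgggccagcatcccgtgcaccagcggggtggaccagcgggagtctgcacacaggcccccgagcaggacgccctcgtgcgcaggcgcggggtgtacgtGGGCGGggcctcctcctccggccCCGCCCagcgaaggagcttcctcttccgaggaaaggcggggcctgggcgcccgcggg
TERF2IP: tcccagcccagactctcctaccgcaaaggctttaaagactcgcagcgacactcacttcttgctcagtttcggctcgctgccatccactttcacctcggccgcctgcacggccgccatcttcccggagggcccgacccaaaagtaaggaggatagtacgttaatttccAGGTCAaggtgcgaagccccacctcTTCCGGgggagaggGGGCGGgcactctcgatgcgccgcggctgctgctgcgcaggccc
Capitals mark matches, on either strand, to an E-box (CACGTG, the site of MYC and MXD1), a GC box (GGGCGG, the site of SP1), an ETS core (CCGGAA) or a retinoid half-site (AGGTCA), and no marked matches overlap. The windows searched ran from 250 bases before to 50 bases after the start, and 6 of the 8 members had one. The TERT window held the E-box, at −163 to −158 when the first transcribed base is counted as 0, and 3 GC boxes, the last of which runs over the start and is cut at the end of the printed sequence. The E-box was found in 7.26% of the 35116 windows of the same length in the table, and among the 6 members only in that of TERT. A GC box was found in 45% of all windows and an ETS core in 17.2%. The ACD window held 2 GC boxes. The TERF2IP window held a GC box, an ETS core and a retinoid half-site, at −83 to −78, which 13.8% of all windows held. The TERT window was 77.3% G and C, against a median of 58.7% for all windows. The search also covered 2 E2F motifs (TTGGCGC and TTCGCGC) and the CHR motif (TTTGAA), which were absent from the windows of TERT, ACD and TERF2IP. A match is a run of letters and was not tested for binding.

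Library totals ranged from 15392648 to 16935515 counts in non-treated cells, from 15238994 to 17010052 with ATRA, from 15576806 to 18679544 with CDK4/6i and from 12230923 to 14415276 with CDK4/6i+ATRA. TMM factors lay between 0.840 and 0.893 in the 3 CDK4/6i+ATRA libraries and between 1.03 and 1.07 in the other 9. Of 10 markers of HL60 cells, 7 were detected, and the granule proteases ELANE, PRTN3 and AZU1 were listed at 0 in every library. The HL60 markers summed to 7178 to 7527 CPM in non-treated cells, 1061 to 1114 after ATRA, 4242 to 4374 with CDK4/6i and 1180 to 1252 in CDK4/6i+ATRA-treated cells. These 3 genes are also placed on an alternate contig, and 65.9% of the rows with such a second placement held no count, against 51.5% of the others. The 14 markers of other cell types summed to 41.0 to 45.7, 55.0 to 58.3, 55.8 to 56.6 and 29.4 to 31.8 CPM in the same order, and the hemoglobin genes HBA1, HBA2 and HBB, the B-cell marker MS4A1, the fibroblast marker COL1A2 and the epithelial marker EPCAM were at 0 throughout. The summed CPM of 20 proliferation genes was 6230 to 6388 in non-treated cells, 6247 to 6451 with ATRA, 1025 to 1086 with CDK4/6i and 199 to 206 with CDK4/6i+ATRA. The summed CPM of 7 myeloid differentiation genes was 178 to 188, 4451 to 4564, 569 to 599 and 5580 to 5811 across these groups. The libraries are bulk RNA, so fewer cells that express a gene and less of its RNA per cell cannot be told apart.

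TERT, the telomerase reverse transcriptase, was nearly lost with ATRA and was reduced with CDK4/6i. Its counts were 60, 60 and 97 in the 3 non-treated libraries, 2, 3 and 2 with ATRA, 28, 31 and 17 with CDK4/6i, and 0, 2 and 0 in CDK4/6i+ATRA-treated cells. In CPM these are 3.61, 3.76 and 5.46 in non-treated cells, 0.123, 0.175 and 0.110 after ATRA, 1.45, 1.89 and 0.995 with CDK4/6i, and 0, 0.178 and 0 in CDK4/6i+ATRA-treated cells. Every non-treated library lay above every CDK4/6i library, and these in turn above every library that had received ATRA. All ATRA and CDK4/6i+ATRA libraries were at or under 3 counts, so their folds are computed with these libraries set to a floor of 3 counts. These folds leave out the counting error and the spread between libraries. At the floor TERT was 24.4-fold lower with ATRA than in non-treated cells (edgeR quasi-likelihood test, Benjamini-Hochberg adjusted p = 1.1e-14) and 16.2-fold lower with CDK4/6i+ATRA (adjusted p = 4.8e-14, edgeR). The Wald intervals of the fit reached −3.65 with ATRA and −3.77 with CDK4/6i+ATRA, smaller falls than the floor values (−4.61 and −4.02, log2). With CDK4/6i alone the mean fell from 4.28 ± 1.03 CPM (SD, n = 3) to 1.45 ± 0.450 CPM, a log2 fold change of −1.57 (SE 0.280; edgeR adjusted p = 2.6e-06). At the floor CDK4/6i+ATRA was 5.49-fold lower than CDK4/6i (edgeR adjusted p = 7.9e-08), and the interval again reached a smaller fall (−2.19 against −2.46, log2). No fold is given between CDK4/6i+ATRA and ATRA, since both were at the floor, and a departure from additivity in TERT was not detectable at this depth. TERT passed the filter on low counts only through the non-treated and CDK4/6i libraries. The proliferation genes kept their summed level with ATRA, where TERT was at the floor, and fell with CDK4/6i, where TERT kept 0.338 of its non-treated mean. Within that sum with ATRA, 9 of the 20 genes rose and 9 fell, with log2 fold changes from −0.78 to 0.70. Of all tested genes 32.1% rose and 35.5% fell with ATRA. The summed HL60 markers were lower in all 3 treated groups. Of the 7 tested, however, 2 rose and 5 fell with ATRA (median log2 fold change −1.38), against 67.6% of all genes called. With CDK4/6i 4 rose and 3 fell (median 0.26), against 56.2%, and with CDK4/6i+ATRA 3 rose and 3 fell (median 0.09), against 81.7%. The part of these lists in the TERT result was not tested.

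**Figure D1:**
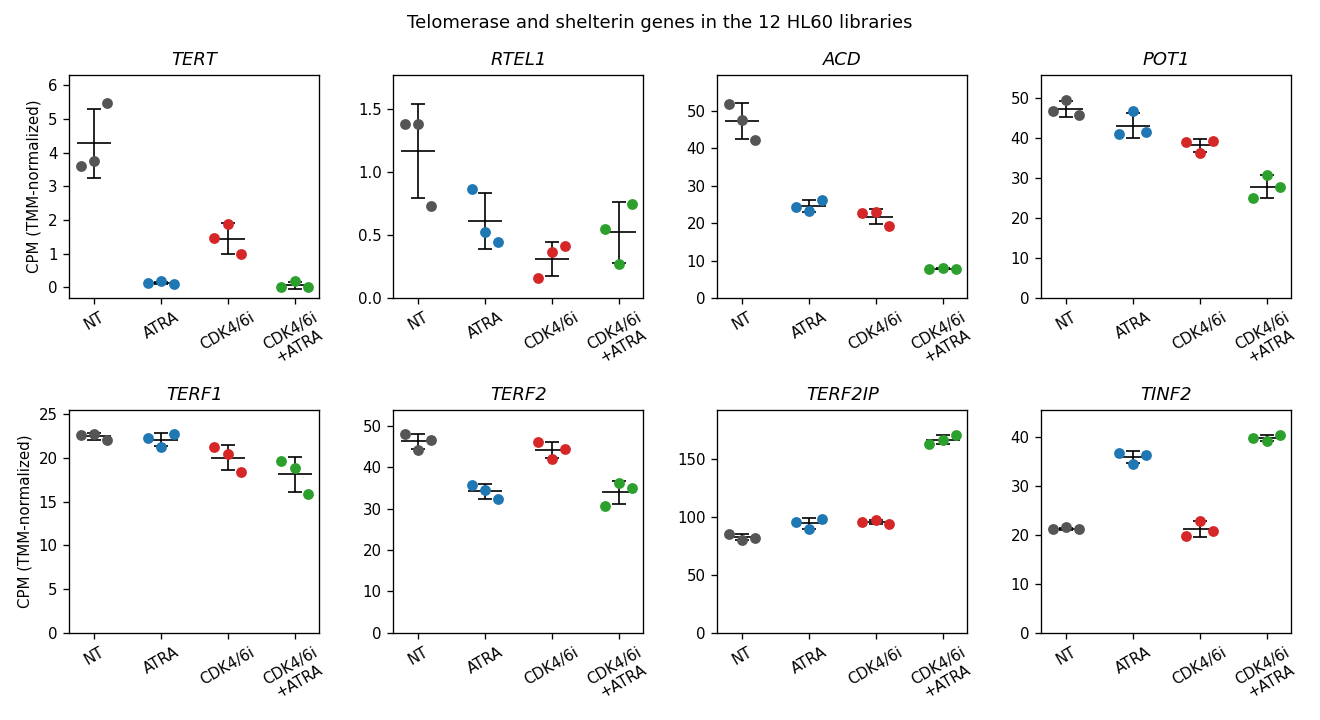
TMM-normalized CPM (linear axis, own scale per gene) of the 8 genes in the 4 groups of 3 libraries, where NT is non-treated. Points are single libraries, and the horizontal line and bar give the mean and SD. The ATRA and CDK4/6i+ATRA points of TERT lie at or below 0.178 CPM, and the 3 TERF2IP points of CDK4/6i+ATRA lie between 163 and 171 CPM, above all others.

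RTEL1, a helicase that unwinds telomeric loops during replication, gave few counts in every library. There were 23, 22 and 13 counts in non-treated cells, 14, 9 and 8 after ATRA, 3, 6 and 7 with CDK4/6i, and 6, 3 and 9 in CDK4/6i+ATRA-treated cells. The CDK4/6i libraries lay below all non-treated libraries, whereas the ATRA and CDK4/6i+ATRA libraries overlapped them in CPM. RTEL1 was lower with CDK4/6i by a log2 fold change of −1.90 (SE 0.506; edgeR adjusted p = 5.2e-04). Its log2 fold changes with ATRA (−0.93, SE 0.424) and CDK4/6i+ATRA (−1.13, SE 0.489) passed the edgeR test narrowly, at adjusted p = 0.0451 and 0.0248. The ATRA call was lost under all 6 other settings run with every library in and without any one of 4 single libraries, and the CDK4/6i+ATRA call was lost in DESeq2 (adjusted p = 0.0506) and without non-treated replicate 1 (−0.98), non-treated replicate 2 (−0.99) or CDK4/6i+ATRA replicate 2 (−0.82). RTEL1 shares 4726 of its 5197 exon bases with the readthrough gene RTEL1-TNFRSF6B, which is listed at 0 in every library, and how reads in the shared bases were counted is not given in the sources used here. If they were not counted, the counts rest on the remaining 471 bases, so the level of RTEL1 per length is uncertain. Only the non-treated libraries and 1 ATRA library reached the filter level for RTEL1.

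The 6 shelterin genes reached the filter level in every library, and they did not move together. With ATRA, 2 rose (TERF2IP and TINF2) and 2 fell (ACD and TERF2) in the edgeR test, where 67.6% of all 13318 tested genes were called, 32.1% higher and 35.5% lower. With CDK4/6i, 1 rose (TERF2IP) and 2 fell (ACD and POT1), against 56.2% of all genes called, 28.3% higher and 27.9% lower. With CDK4/6i+ATRA all 6 were called against non-treated cells, 2 higher (TERF2IP and TINF2) and 4 lower (ACD, POT1, TERF2 and TERF1), where 81.7% of all genes were called, 41% higher and 40.7% lower. The median log2 fold change of the 6 genes was −0.38 with CDK4/6i+ATRA, within a range from −2.59 to 1.01, against a median of 0.02 over all tested genes. In each of these comparisons the libraries of the compared groups did not overlap for 70.3%, 60.7% and 81.8% of all tested genes, in that order, so separate groups are common in these data. The counts called with either single drug lie close to the background of all genes. When counts were scaled by library size alone, the median of all genes moved from 0.02 to −0.25 with CDK4/6i+ATRA, and all 6 genes kept their direction and call.

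The pair that binds double-stranded repeats showed the smallest changes of the 6 with CDK4/6i+ATRA under TMM. By library size alone TERF2 gave −0.71 and TINF2 0.63, so this ranking depends on the scaling. TERF1 (chr8:73008864-73048123, plus strand), which limits telomere length, gave 22.6, 22.8 and 22.0 CPM in non-treated cells, 22.3, 21.3 and 22.7 after ATRA, 21.2, 20.5 and 18.4 with CDK4/6i, and 19.6, 18.9 and 15.9 in CDK4/6i+ATRA-treated cells. The ATRA libraries were interleaved with the non-treated ones, and the CDK4/6i+ATRA libraries lay below both. TERF1 fell with CDK4/6i+ATRA (log2 fold change −0.31, SE 0.0895; edgeR adjusted p = 0.00143), to 0.807 of its non-treated mean. Its values with CDK4/6i (−0.16, SE 0.0816; adjusted p = 0.0864) and ATRA (−0.02, SE 0.0807; adjusted p = 0.818) did not pass the edgeR test. TERF2, which protects the end from being joined as a break, gave 48.0, 44.3 and 46.5 CPM in non-treated cells, 35.7, 34.4 and 32.3 after ATRA, 46.0, 42.0 and 44.3 with CDK4/6i, and 30.7, 36.1 and 35.0 in CDK4/6i+ATRA-treated cells. Both groups that received ATRA lay below both groups that did not, without overlap. TERF2 fell with ATRA (−0.44, SE 0.0631; adjusted p = 2.7e-08) and with CDK4/6i+ATRA (−0.45, SE 0.0676; adjusted p = 5.8e-08), and its value with CDK4/6i was −0.07 (SE 0.0608; adjusted p = 0.357, edgeR).

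TERF2IP, whose product RAP1 binds TRF2 and also acts away from telomeres in NF-κB signaling, showed the largest rise among the members with CDK4/6i+ATRA. It gave 85.6, 80.3 and 82.3 CPM in non-treated cells, 96.0, 89.5 and 98.0 after ATRA, 95.9, 97.7 and 93.8 with CDK4/6i, and 163, 167 and 171 in CDK4/6i+ATRA-treated cells. The single-drug groups overlapped each other and lay just above the non-treated cells, whereas the CDK4/6i+ATRA libraries stood far above all others. The log2 fold change was 0.19 (SE 0.0443; edgeR adjusted p = 1.6e-04) with ATRA, 0.21 (SE 0.0442; adjusted p = 5.4e-05) with CDK4/6i and 1.01 (SE 0.0437; adjusted p = 1.6e-26) in CDK4/6i+ATRA-treated cells. Its partner TERF2 thus fell in the libraries in which TERF2IP was highest.

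TINF2, which bridges TRF1, TRF2 and TPP1, was higher in the libraries that had received ATRA. It gave 21.2, 21.5 and 21.1 CPM in non-treated cells, 36.7, 34.4 and 36.3 after ATRA, 19.7, 22.9 and 20.8 with CDK4/6i, and 39.7, 39.0 and 40.3 in CDK4/6i+ATRA-treated cells. The CDK4/6i libraries straddled the non-treated ones, and all 6 libraries with ATRA lay above all 6 without. The log2 fold change was 0.75 (SE 0.0703; edgeR adjusted p = 1.5e-13) with ATRA, −0.01 (SE 0.0749; adjusted p = 0.897) with CDK4/6i and 0.90 (SE 0.0728; adjusted p = 6.2e-16) in CDK4/6i+ATRA-treated cells. TINF2 is the only member also placed on a patch contig, and how reads with both placements were counted is not given in the sources used here, so its level is less certain than its differences between groups.

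The overhang-binding pair fell in both groups that received CDK4/6i, ACD by far the more. ACD encodes TPP1, which recruits telomerase to the end and joins POT1 to shelterin. It gave 51.9, 47.6 and 42.4 CPM in non-treated cells, 24.3, 23.3 and 26.3 after ATRA, 22.9, 23.0 and 19.4 with CDK4/6i, and 7.79, 7.93 and 7.85 in CDK4/6i+ATRA-treated cells. The CDK4/6i libraries lay just below the ATRA libraries, and the CDK4/6i+ATRA libraries lay far below both. The log2 fold change was −0.94 (SE 0.0747; edgeR adjusted p = 6.7e-16) with ATRA, −1.12 (SE 0.0759; adjusted p = 4.8e-18) with CDK4/6i and −2.59 (SE 0.111; adjusted p = 8.5e-29) in CDK4/6i+ATRA-treated cells. ACD overlaps CARMIL2 on the opposite strand over 58 bases (3.80% of its exons), and CARMIL2 held 2424 counts over the 12 libraries against 5062 for ACD. POT1, which binds the single-stranded overhang, gave 46.6, 49.4 and 45.6 CPM in non-treated cells, 40.9, 46.7 and 41.5 after ATRA, 38.8, 36.3 and 39.2 with CDK4/6i, and 24.9, 30.7 and 27.8 in CDK4/6i+ATRA-treated cells. ATRA replicate 2 lay within the non-treated range, and the CDK4/6i+ATRA libraries lay below all others. POT1 fell with CDK4/6i (−0.31, SE 0.0638; adjusted p = 5.0e-05) and with CDK4/6i+ATRA (−0.76, SE 0.0725; adjusted p = 1.1e-13), and its value with ATRA was −0.13 (SE 0.0630; adjusted p = 0.0591, edgeR), which passed without ATRA replicate 2 (−0.20), non-treated replicate 3 (−0.16) or CDK4/6i+ATRA replicate 1 (−0.13).

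**Figure D2:**
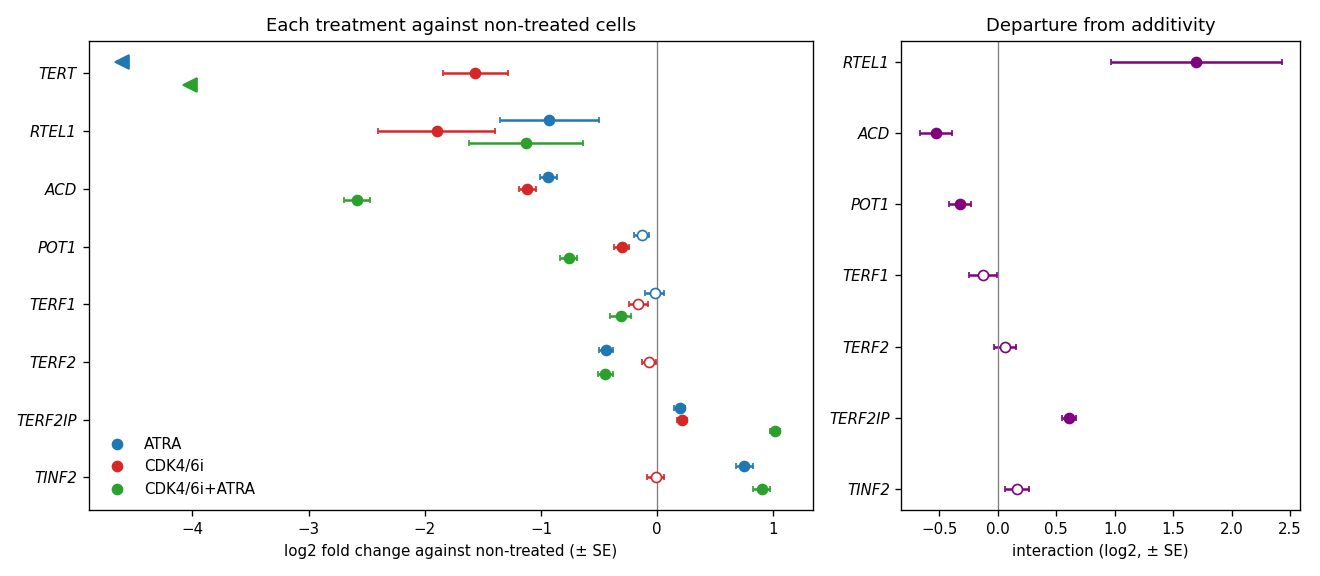
Left, log2 fold change (± SE) of each gene against non-treated cells with ATRA (blue), CDK4/6i (red) and CDK4/6i+ATRA (green). Filled circles mark adjusted p under 0.05, and triangles mark TERT at the floor of 3 counts per library, where the fitted value lies further left. Right, the departure of CDK4/6i+ATRA from the sum of the single-drug changes (log2, ± SE), without TERT. ACD reached −2.59 and TERF2IP 1.01 with CDK4/6i+ATRA, and on the right ACD and POT1 lie below 0 while TERF2IP and RTEL1 lie above it.

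Adding a further drug was compared with each drug alone. Against CDK4/6i, CDK4/6i+ATRA raised TERF2IP (0.80, SE 0.0428) and TINF2 (0.91, SE 0.0724) and lowered ACD (−1.47, SE 0.115), POT1 (−0.46, SE 0.0737) and TERF2 (−0.38, SE 0.0676), with edgeR adjusted p-values of at most 2.0e-06, where 78.6% of all genes were called, 39.1% higher and 39.5% lower. TERF1 (−0.15, SE 0.0902; adjusted p = 0.123) and RTEL1 (0.77, SE 0.594; adjusted p = 0.224) did not pass. Against ATRA, CDK4/6i+ATRA raised TERF2IP (0.82, SE 0.0430; edgeR adjusted p = 1.1e-22) and lowered ACD (−1.65, SE 0.114; adjusted p = 4.5e-19), POT1 (−0.63, SE 0.0730; adjusted p = 8.1e-11) and TERF1 (−0.29, SE 0.0894; adjusted p = 0.00361), where 69.8% of all genes were called, 36.9% higher and 32.8% lower. The TERF1 call was lost without CDK4/6i+ATRA replicate 3. TERF2 gave −0.01 (SE 0.0696, edgeR adjusted p = 0.946), and RTEL1 gave −0.20 (SE 0.526, adjusted p = 0.745). TINF2 was 0.15 higher (SE 0.0676; edgeR adjusted p = 0.0461), a call that was lost under 5 of 7 other settings and turned to −0.16 (adjusted p = 0.0421) when the counts were scaled by library size alone. It lay 0.11 above the median of all genes under TMM and 0.10 above it by library size. Scaling by library size moved the median of all genes from 0.00 to −0.28 against CDK4/6i and from 0.04 to −0.26 against ATRA, and the share of called genes that were higher from 49.8% to 36.7% and from 53% to 31.6%. Both comparisons share the CDK4/6i+ATRA libraries.

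The interaction measures, on the log2 scale, how far the effect of CDK4/6i+ATRA lies from the added effects of the single drugs, and 51.4% of all tested genes were called for it, 24.5% upward and 27% downward. Among the shelterin genes, TERF2IP rose beyond the sum (0.61, SE 0.0616; edgeR adjusted p = 5.6e-12), and ACD (−0.53, SE 0.137; adjusted p = 8.5e-04) and POT1 (−0.32, SE 0.0970; adjusted p = 0.00425) fell beyond it. In relative levels, the product of the single-drug values was 1.32 for TERF2IP, where 2.02 was measured with CDK4/6i+ATRA. The product was 0.240 for ACD, where 0.166 was measured, and 0.736 for POT1, where 0.588 was measured. TERF1 (−0.13, SE 0.121; adjusted p = 0.401), TERF2 (0.06, SE 0.0925; adjusted p = 0.609) and TINF2 (0.16, SE 0.101; adjusted p = 0.181) did not pass the edgeR test. RTEL1 departed upward (1.70, SE 0.730; edgeR adjusted p = 0.0441), a call that was lost under 4 of the 5 other settings run and without any one of 7 single libraries. Scaling by library size alone moved the median interaction of all genes from −0.02 to −0.34 and the share of called genes that were higher from 47.5% to 18.5%. Under that scaling TERF2IP, ACD and POT1 kept their direction and call (0.29, −0.85 and −0.64), while TERF2 turned to −0.26 (adjusted p = 0.0158, edgeR) and TERF1 became called (−0.44). Less the median of all genes, however, TERF2IP stood at 0.63, ACD at −0.51, TERF2 at 0.08 and POT1 at −0.30 under both scalings, and TERF2 did not turn relative to all genes.

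Levels were compared between genes only per length, as CPM per kilobase of exon (RPKM). In non-treated cells the order was ACD (31.0 RPKM), TERF2IP (25.3), TERF2 (15.2), POT1 (11.4), TINF2 (9.66), TERF1 (6.43), TERT (1.06) and RTEL1 (0.224) on the full exon length, with no overlap between neighbours. Over its 471 unshared bases alone RTEL1 gave 2.47 RPKM, above TERT, so the order of this pair depends on the length used. With ATRA, TERF2IP led (29.0 RPKM), and TINF2 (16.3) and ACD (16.1) overlapped, as did TERF2 (11.2) and POT1 (10.4), above TERF1 (6.32). With CDK4/6i, TERF2IP led again (29.4 RPKM), followed by TERF2 (14.5) and ACD (14.2), which overlapped, by TINF2 (9.59) and POT1 (9.20), which also overlapped, and by TERF1 (5.73) and TERT (0.358). With CDK4/6i+ATRA the order was TERF2IP (51.1 RPKM), TINF2 (18.0), TERF2 (11.1), POT1 (6.71) and, overlapping each other, TERF1 (5.19) and ACD (5.15). ACD thus went from the highest of the shelterin mRNAs per length in non-treated cells to the lowest with CDK4/6i+ATRA, where it overlapped TERF1.

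The summed level of the 6 shelterin genes was 99.0 ± 4.10 RPKM (SD, n = 3) in non-treated cells, 89.3 ± 2.03 after ATRA, 82.6 ± 2.11 with CDK4/6i and 97.3 ± 2.10 in CDK4/6i+ATRA-treated cells. The sums of non-treated and CDK4/6i+ATRA cells differed by less than the spread between libraries under TMM. Scaled by library size alone they were 102.6 ± 3.06 and 84.0 ± 1.09 RPKM, so this near-equality depends on the scaling, which the shares within a library do not. TERF2IP made up 25.6% ± 0.795 of the sum in non-treated cells, 32.4% ± 0.792 after ATRA, 35.5% ± 0.427 with CDK4/6i and 52.5% ± 0.703 in CDK4/6i+ATRA-treated cells. ACD made up 31.2% ± 1.90, 18.1% ± 0.776, 17.2% ± 1.22 and 5.29% ± 0.0795 in the same order. TINF2 rose from 9.77% ± 0.411 in non-treated cells to 18.2% ± 0.278 after ATRA and 18.5% ± 0.508 with CDK4/6i+ATRA, and stood at 11.6% ± 0.884 with CDK4/6i. TERF2 held 15.3% ± 0.655, 12.6% ± 0.770, 17.5% ± 0.930 and 11.4% ± 0.729, POT1 held 11.5% ± 0.606, 11.7% ± 1.13, 11.2% ± 0.676 and 6.89% ± 0.587, and TERF1 held 6.50% ± 0.207, 7.08% ± 0.0761, 6.94% ± 0.334 and 5.34% ± 0.664. The shares are a description with no test, and they depend on the exon length assigned to each gene.

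**Figure D3:**
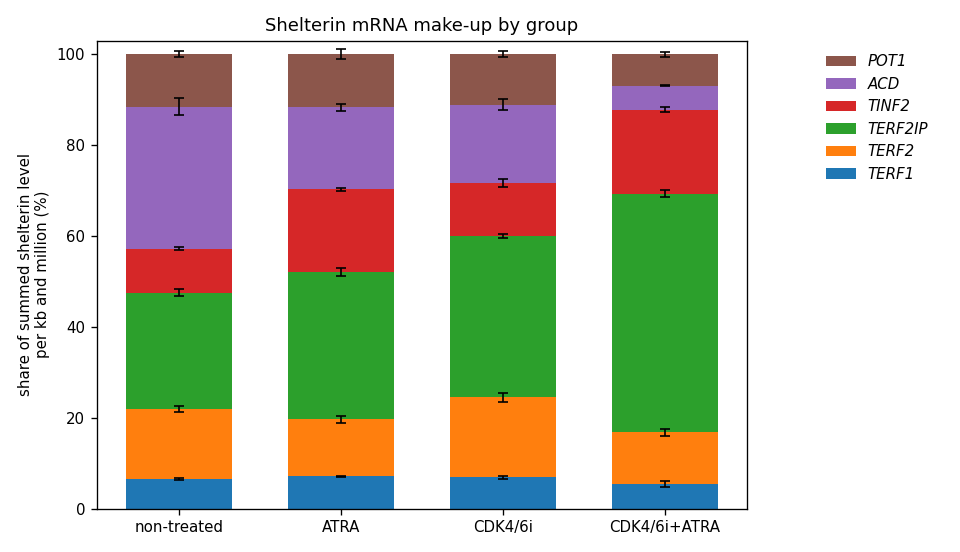
Share (%) of each of the 6 shelterin genes in their summed RPKM in the 4 groups, as stacked bars of the group mean with SD bars (n = 3) at the top of each segment. The TERF2IP segment grows from 25.6% to 52.5% and the ACD segment shrinks from 31.2% to 5.29% between non-treated and CDK4/6i+ATRA cells.

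Ratios between partners showed the same shift within libraries, free of any scaling between them. The level of TERF2IP per length was 1.67 ± 0.0212 times that of TERF2 in non-treated cells, 2.59 ± 0.212 after ATRA, 2.03 ± 0.121 with CDK4/6i and 4.61 ± 0.336 in CDK4/6i+ATRA-treated cells (SD, n = 3). The same ratio of TINF2 to ACD was 0.314 ± 0.0315 in non-treated cells, 1.01 ± 0.0466 after ATRA, 0.677 ± 0.0756 with CDK4/6i and 3.50 ± 0.0791 in CDK4/6i+ATRA-treated cells. That of POT1 to ACD was 0.371 ± 0.0345 in non-treated cells, 0.647 ± 0.0814 after ATRA, 0.651 ± 0.0855 with CDK4/6i and 1.30 ± 0.123 in CDK4/6i+ATRA-treated cells. The 3 CDK4/6i+ATRA libraries lay above all others in each of these ratios. That of TERF1 to TERF2 was 0.424 ± 0.0213 in non-treated cells, 0.566 ± 0.0410 after ATRA, 0.397 ± 0.0313 with CDK4/6i and 0.470 ± 0.0819 in CDK4/6i+ATRA-treated cells. In this ratio the ATRA libraries lay above all non-treated libraries, whereas the CDK4/6i and CDK4/6i+ATRA libraries overlapped the non-treated ones.

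Most other tested genes of the telomerase particle fell with ATRA, CDK4/6i and CDK4/6i+ATRA. TERC, the template RNA, gave 0 to 7 counts per library, and PARN, which trims it, gave 0 to 8, so neither was tested. The low TERC counts are not read as its level in the cells, since its capture in these libraries was not tested. Of 16 genes of the telomerase particle and its assembly, 14 were tested, and 13 fell and 1 rose with CDK4/6i+ATRA (median log2 fold change −1.61), where 40.7% of all tested genes fell and 41% rose. With ATRA 11 fell and the other 3 did not pass the test (median −0.99), against 35.5% of all genes lower. With CDK4/6i 12 fell and 1 rose (median −0.38), against 27.9% lower and 28.3% higher. DKC1, the dyskerin that stabilizes TERC, went from 319 ± 8.97 CPM in non-treated cells to 158 ± 10.2 after ATRA, 240 ± 3.02 with CDK4/6i and 71.2 ± 3.01 in CDK4/6i+ATRA-treated cells. The log2 fold change of DKC1 with CDK4/6i+ATRA was −2.17 (SE 0.0465; edgeR adjusted p = 7.3e-40). RUVBL1 and RUVBL2, the paired ATPases that assemble the particle, fell by 2.56 and 2.37 on the log2 scale, and NAF1, an assembly factor of box H/ACA RNAs, fell by 2.17. NOP10, a core protein of the same particle named here because it was the only one to rise with CDK4/6i+ATRA, gave 0.75. NOP10, RUVBL1, PINX1 and PARN are also placed on another contig, so their levels are less certain. These proteins also serve ribosomal RNA modification or chromatin complexes, so the list is not particular to telomerase.

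Of 7 genes of the CST complex and DNA polymerase α-primase, which fill in the strand opposite the overhang, 6 were tested, since TEN1 shares all its exon bases with a readthrough gene and was listed at 0. With CDK4/6i+ATRA 5 fell and 1 rose (median −2.44), where 81.7% of all genes were called. The primase and polymerase subunits PRIM1 (−3.77), POLA1 (−3.36), POLA2 (−3.22) and PRIM2 (−1.65) carried the fall, whereas STN1 gave −0.25 and CTC1 gave 0.42, neither of which was called under every scaling. With ATRA the median was −0.12 with 2 lower and 1 higher (67.6% of all genes called), and with CDK4/6i −1.17 with 4 lower and 1 higher (56.2% of all genes called). The polymerase and primase subunits also copy the genome in S phase, and all 4 fell with CDK4/6i and in the combined treatment, as the summed level of the proliferation genes did. PRIM1 (−0.27, edgeR adjusted p = 4.5e-05) and POLA1 (−0.28, adjusted p = 2.7e-07) also fell slightly with ATRA, where that sum was kept. The part of proliferation in this result was not tested.

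Of 28 telomere-associated factors, 27 were tested, and 17 fell and 9 rose with CDK4/6i+ATRA (median −0.75). Of all genes 81.7% were called, 40.7% lower and 41% higher. EXO1, the nuclease that resects ends, went from 56.5 ± 3.01 CPM in non-treated cells to 31.7 ± 2.64 after ATRA, 2.97 ± 0.636 with CDK4/6i and 0.229 ± 0.167 in CDK4/6i+ATRA-treated cells (log2 fold change −7.87, SE 0.538; edgeR adjusted p = 2.5e-37). EXO1 held 1 to 5 counts per library with CDK4/6i+ATRA, so the size of its fold is uncertain. FEN1 (−4.51), the helicase BLM (−4.32) and DCLRE1B, the TRF2-bound nuclease Apollo (−2.83), followed EXO1. The largest rises were those of SMG6, an endonuclease of nonsense-mediated decay (2.01), the DNA damage kinase ATM (1.50), which TRF2 restrains at telomeres, and SAMHD1, a dNTP hydrolase (1.42). SMG6 and SAMHD1 also rose with ATRA alone (1.72 and 1.66) and did not pass the edgeR test with CDK4/6i (adjusted p = 0.110 and 0.0633). ATM rose with ATRA (0.62) and with CDK4/6i (0.66), both past the test. With ATRA 10 factors fell and 10 rose (median −0.03), close to the 67.6% of all genes called. With CDK4/6i 15 fell and 6 rose (median −0.38), against 56.2%, 27.9% lower and 28.3% higher. The summed proliferation genes also fell with CDK4/6i and CDK4/6i+ATRA, and their part in these falls was not tested.

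Of 16 transcription factors known to act on TERT, 8 fell and 7 rose with CDK4/6i+ATRA (median −0.19), against 81.7% of all genes called, and 10 fell and 4 rose when scaled by library size alone (median −0.46), where 6431 of all genes fell and 4376 rose (median −0.25). MYC, an activator of TERT through E-boxes, gave 1292 ± 12.2 CPM in non-treated cells, 151 ± 8.10 after ATRA, 1183 ± 15.0 with CDK4/6i and 84.4 ± 7.19 in CDK4/6i+ATRA-treated cells. The MYC log2 fold changes were −3.10 (SE 0.0438; edgeR adjusted p = 9.4e-46), −0.13 (SE 0.0411; adjusted p = 0.00702) and −3.94 (SE 0.0487; adjusted p = 3.7e-49). MXD1, which replaces MYC at E-boxes and represses, moved the other way, from 29.2 ± 1.18 CPM to 83.7 ± 3.18 with ATRA, 54.9 ± 2.89 with CDK4/6i and 159 ± 5.03 in CDK4/6i+ATRA-treated cells (log2 fold change 2.45, SE 0.0546; edgeR adjusted p = 2.5e-39). The list holds both activators, such as MYC, and repressors, such as MXD1, so its falls and rises have no single direction for TERT. WT1 fell with ATRA (−2.73), CDK4/6i (−0.37) and CDK4/6i+ATRA (−3.85), and MEN1 fell with ATRA (−0.73) and CDK4/6i+ATRA (−1.26). E2F1, which is also among the 20 proliferation genes, gave −0.78 with ATRA, −2.53 with CDK4/6i and −5.99 in CDK4/6i+ATRA-treated cells, each past the test. ETS2 (1.83), MNT (1.34) and SP1 (1.05) rose with CDK4/6i+ATRA. SP1 rose with ATRA (0.39, edgeR adjusted p = 1.4e-12) and fell with CDK4/6i (−0.41, adjusted p = 1.7e-12). The part of these factors in the TERT result was not tested. With ATRA 7 of the 16 fell and 5 rose (median −0.19), close to the 67.6% of all genes called, and with CDK4/6i 8 fell and 4 rose (median −0.35), against 56.2%.

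**Figure D4:**
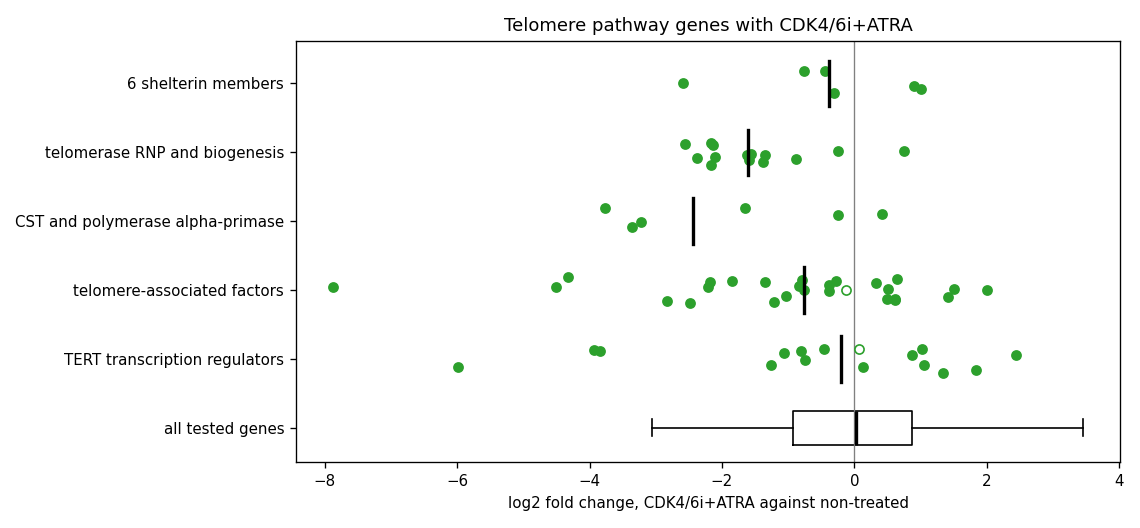
Log2 fold change of CDK4/6i+ATRA against non-treated cells for the 6 shelterin genes, the 4 pathway lists and, as a box (median and quartiles, whiskers at the 5th and 95th percentiles), all 13318 tested genes. Each point is a gene, filled for adjusted p under 0.05, and the thick bars are medians. The medians lie at −1.61 for the telomerase particle, −2.44 for CST and polymerase α-primase and 0.02 for all genes.

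The genes whose levels were most like that of TERT were found by the Pearson correlation of log2(CPM + 1) over the 12 libraries, among 11565 genes with a mean of at least 1 CPM. The libraries fall into 4 groups, so the coefficient mostly compares group means, and it is given as a description. The 5 closest were PPRC1 (0.980), CNBP (0.979), KLHL21 (0.978), ATF5 (0.978) and NOCT (0.977). All 5 stayed above the floor where TERT was at it, from 13.9 CPM for NOCT to 298 CPM for CNBP with ATRA. For TERF2IP, the member with the largest rise, the 5 closest were PPP1R15A (0.996), CAMK1 (0.995), FTH1 (0.994), SUPT6H (0.994) and TMEM167B (0.994). PPP1R15A, a stress-induced phosphatase subunit, went from 26.0 CPM in non-treated cells to 43.7 after ATRA, 43.2 with CDK4/6i and 191 in CDK4/6i+ATRA-treated cells, and FTH1, the ferritin heavy chain, from 118 to 154, 176 and 776.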

How the data were processed

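RNA-Seq was analysed in 12 libraries of HL60 cells, 3 biological replicates in each of 4 groups taken from the sample labels. The authors made directional libraries, aligned the reads to hg38 with STAR 2.7.11a, for which the submitters' processing notes also name Trimmomatic 0.33, and deposited raw counts per NCBI RefSeq gene. These counts are whole numbers without normalization. The paper names RSEM for the counting, whereas the table has the layout that featureCounts writes, and the strand setting and the handling of multiply aligned reads are not given in the sources used here. ChIP-Seq data were not used here.

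Of 59251 genes, 31154 had no count, and filterByExpr on the 4 groups kept 13318. Counts were normalized with TMM and tested with the quasi-likelihood F test of edgeR 4.0.16 (R 4.3.3) on 1 model of the 4 groups, and p-values were adjusted by Benjamini-Hochberg over every gene tested, at a threshold of 0.05. The biological coefficient of variation common to all genes was 3.70%. Standard errors are Wald errors from the fitted weights. Where no library of a group exceeded 3 counts, the group was set to 3 counts per library. The fold is then a value at the floor, which covers neither counting error nor the spread between libraries. RPKM used the exon bases on primary chromosomes. DESeq2 1.42.0 served as an alternative. Replicate pairs within groups differed by more than sampling noise (chi-square per degree of freedom 1.85 to 6.81), so none was merged. On simulated counts for 13318 genes in the comparison of CDK4/6i+ATRA-treated with non-treated cells, 42 of 67 genes changed 1.5-fold, 57 of 67 changed 2-fold and 65 of 66 changed 4-fold were recovered, with 6 false among 170 calls. For the interaction the recovered numbers were 51 of 67, 53 of 67 and 62 of 66, with 9 false among 175 calls. Both simulations changed only these genes, in random direction, and gave every gene the same spread. Most genes were called in the data, and TMM factors differed between groups, so these numbers do not carry over to the comparisons made here.

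The 8 members and the gene lists, which were compiled by hand from general knowledge, were chosen with earlier results of these data known. All members are named. From each pathway list the text names up to 4 genes per direction that passed the threshold with an absolute log2 fold change of at least 1 with CDK4/6i+ATRA and a mean of at least 1 CPM, together with TERC, DKC1, MYC and MXD1, and the 5 genes most like TERT and the member that rose most. NOP10, STN1 and CTC1 were named after their values were seen. The motif search, the list counts and the shelterin sum under other scalings and the values less the median of all genes were added after the data were seen. Alternatives were other scalings and filters, DESeq2, a replicate block, only the groups compared, shares without division by length, and leaving out each library.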

Additional observations from a re-analysis of the deposited data

Results flagged for a closer look

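For 4 of the 8 members the change with CDK4/6i+ATRA differed from the sum of the changes with ATRA and CDK4/6i. This means that the effect of each drug differed between cells with and without the other. The test was that of the interaction term in edgeR (Benjamini-Hochberg adjusted over 13318 genes). Of all these genes 51.4% were called, so the count of members called is close to the background and does not set the members apart. The interaction was 0.61 on the log2 scale for TERF2IP (adjusted p = 5.6e-12), −0.53 for ACD (adjusted p = 8.5e-04), −0.32 for POT1 (adjusted p = 0.00425) and 1.70 for RTEL1 (adjusted p = 0.0441). TERF2IP kept its call under every alternative tried, with 0.29 the lowest value, under library-size scaling. The RTEL1 value rests on 3 to 23 counts per library and lost its call without any one of 7 single libraries. Groups of 3 libraries were not tested for a single library standing apart.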

How the results depend on the processing

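Of the count of members called, 5 of 6 comparisons kept their value within 1.5 times under every alternative tried that left all libraries in. The exception was CDK4/6i against non-treated cells, where keeping genes with 10 or more counts in all libraries left 6 of the 8 members and 3 calls in place of 5, since TERT and RTEL1 were not tested. Leaving out each library in turn gave 3 to 5 members called for CDK4/6i+ATRA against ATRA, with 3 without CDK4/6i+ATRA replicate 3, where TERF1 and TINF2 lost their calls, and the counts for all tested genes stayed within 1.5 times throughout. In the comparison of CDK4/6i+ATRA with non-treated cells, the call of RTEL1 was lost in DESeq2 (−1.13, adjusted p = 0.0506) and without any one of 3 single libraries (range over 12 left-out libraries −1.49 to −0.82), and the other 7 members kept direction and call.

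Directions that turned into a called value were those of TINF2 between CDK4/6i+ATRA and ATRA and of the TERF2 interaction, both by library size alone. TINF2 in that comparison was −0.16 by library size alone and lost its call without any one of 5 libraries (range 0.12 to 0.17), with no filter (0.06, adjusted p = 0.631), with DESeq2 size factors (0.14, adjusted p = 0.0728), in DESeq2 (0.14, adjusted p = 0.117) and in the fit of only the groups compared (0.09). TERF1 with ATRA turned to 0.0096 with DESeq2 size factors, 0.0181 by library size, 0.0037 with at least 10 counts in every library, 0.0094 in DESeq2, 0.0186 with only the groups compared and 0.0039 without ATRA replicate 2 (range over left-out libraries −0.0434 to 0.0039). TINF2 with CDK4/6i turned to 0.0321 without CDK4/6i replicate 1 (range −0.0720 to 0.0321). Between CDK4/6i+ATRA and ATRA, TERF2 turned to 0.00015 with at least 10 counts in every library, 0.03 without ATRA replicate 1, 0.00011 without ATRA replicate 2 and 0.0596 without CDK4/6i+ATRA replicate 1 (range −0.0506 to 0.0596), and RTEL1 to 0.12 without ATRA replicate 1 and 0.11 without CDK4/6i+ATRA replicate 2 (range −0.56 to 0.12). For the interaction, library size alone gave −0.26 (adjusted p = 0.0158) for TERF2 and −0.16 for TINF2, no filter gave −0.0232 for TERF2, and the edgeR fit of TERT gave −2.65 without CDK4/6i+ATRA replicate 2 (range −2.65 to 1.02), where the remaining libraries of that group held 0 counts, so that no TERT interaction is a measured value. Library size alone also called TERF1 (−0.43) between CDK4/6i+ATRA and CDK4/6i, as did no filter (−0.25), and TERF2 (−0.31) between CDK4/6i+ATRA and ATRA. By library size alone the median of all genes moved as well, and TINF2 and TERF2 kept their side of that median. Calls were gained for POT1 with ATRA without any one of 3 libraries (range −0.20 to −0.0990) and for TERF1 with CDK4/6i without CDK4/6i replicate 1 (−0.21, range −0.21 to −0.11). The cause of the other turns was not tested.

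Without division by gene length, 22 of the 24 shelterin shares moved by more than their SD, by the construction of the scale. In non-treated, ATRA, CDK4/6i and CDK4/6i+ATRA cells in turn, they became 31.0%, 37.2%, 39.8% and 56.7% for TERF2IP, 17.7%, 9.69%, 9.02% and 2.67% for ACD, 7.96%, 14.1%, 8.77% and 13.5% for TINF2, 17.7%, 16.9%, 15.8% and 9.43% for POT1, 8.41%, 8.69%, 8.31% and 6.17% for TERF1, and for TERF2 17.3% in non-treated cells and 13.4% with ATRA.

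Samples of the same replicate number did not deviate together (correlations −0.114 to 0.0702 over 18 pairs, none over 0.1), so no pairing by number was seen. With 3 libraries per group this check cannot exclude that replicates were handled in matched batches. With the replicate number as a block, the members called were 5, 5, 8, 6, 4 and 3 in the 6 comparisons, in place of 6, 5, 8, 6, 5 and 4. The calls lost under the block were RTEL1 with ATRA (−0.93, adjusted p = 0.0565, edgeR), TINF2 between CDK4/6i+ATRA and ATRA (0.15, adjusted p = 0.0551) and the interaction of RTEL1 (1.70, adjusted p = 0.0528). At this depth, changes of TERT below 3 counts per library were not detectable. The fit of only the groups compared gives no value for the interaction.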
